A study of Oryza sativa Japonica Group with 8 samples.

Results

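In rice (Oryza sativa, japonica), 135 of 31187 loci were high in leaves before flowering, in flowers and in mature seeds at once, and low in milk grains and in roots of the same early stage. A locus was taken when the lowest of its 3 values in leaves before flowering, flowers and mature seeds was at least 10 FPKM, and when that value was at least 5 times the higher of its values in roots before flowering and milk grains, with 1 FPKM added to both sides. FPKM is the number of sequenced fragments scaled to transcript length and to the mapped fragments of the library, so levels can be set side by side between loci. The values of these 5 libraries chose the loci and are given as a description. The other 3 libraries, flower buds, leaves after flowering and a library whose label reads roots after flowering, took no part in the choice.

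The study sequenced poly(A) RNA from 8 groups with 1 library each: open flowers and flower buds, flag leaves after and before flowering, mature seeds and milk grains, and roots after and before flowering. All came from greenhouse plants of the same subspecies, without a treatment or mutation in the labels. Leaves and roots of the before-flowering stage mixed material from panicle initiation up to the eve of flowering, and the after-flowering material mixed later stages, so each of these libraries averages over time. The labels do not give the number of plants, nor whether grains and seeds were hulled. With 1 library per group there is no replicate error, so no difference below could be tested, and each ratio compares 2 libraries rather than 2 organs or stages. Fewer cells of a type and less RNA per cell cannot be told apart in such bulk samples, and the read depth is unknown.

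The flag leaf is the main source of sugars for the filling grain, and its cells carry chloroplasts, as do the green bracts that enclose the rice flower and later form the hull. The milk grain is dominated by an endosperm that is filling with starch and storage protein, while roots take up water and minerals and lack green plastids. Dry seeds keep messenger RNA made earlier in development. The table gives assembly identifiers without gene names, and the identifiers of 0 of the 135 loci were found in the RefSeq gene table used here, so no function is assigned to any locus here and the organ labels could not be checked against marker genes. Positions are those of MSU Release 7, and 100 of the 135 loci (74.1%) had a position not shared with another locus. The remaining 35 lay on a span shared by 2 to 40 loci, and for them the span is not the limit of the locus.

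The late library of the root pair, labelled as roots after flowering, stood apart from its label and is called the late root-labelled library below. Its Pearson r with leaves after flowering was 0.987 across the 31187 loci on the log2(FPKM + 1) scale, a description of 2 libraries. The summed FPKM of the 8 libraries lay between 569819 and 611306. No value of this library entered the choice of loci, and results with it are given separately.

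The 135 loci were most abundant in leaves before flowering. Their median was 194.5 FPKM in leaves before flowering, 129 FPKM in flowers and 41.3 FPKM in mature seeds, against 1.41 FPKM in milk grains and 0.792 FPKM in roots before flowering. The highest value was 4111 FPKM in leaves before flowering, 3071 FPKM in flowers and 1885 FPKM in mature seeds. Together the loci took 12.2% of the summed FPKM of leaves before flowering, 7.89% of flowers and 2.43% of mature seeds, against 0.0938% of milk grains and 0.0465% of roots before flowering. In the libraries outside the choice they took 3.30% of flower buds, 6.16% of leaves after flowering and 9.15% of the late root-labelled library. Of all 31187 loci, the 135 made up 38 of the 100 most abundant in leaves before flowering and 29 of the 100 in flowers, but 3 of the 100 in mature seeds. Among libraries outside the choice, they made up 9 of the 100 most abundant loci in flower buds, 21 in leaves after flowering and 27 in the late root-labelled library.

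**Figure D1:**
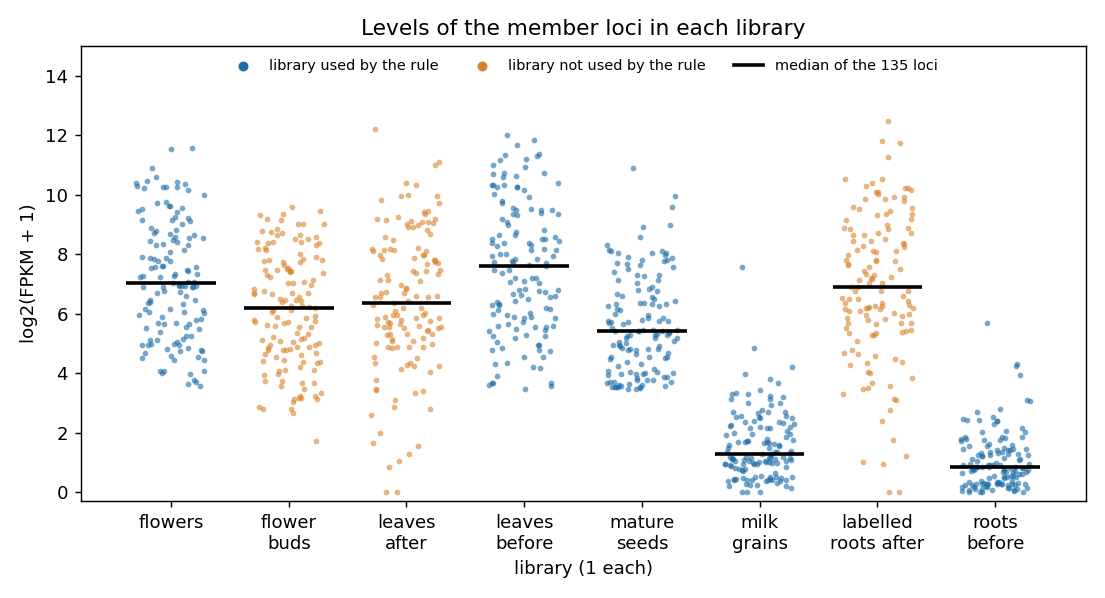
Level of each of the 135 loci as log2(FPKM + 1), on the vertical axis, in the 8 libraries, with 1 point per locus and a bar at the median. Medians lie at 129 FPKM in flowers, 71.4 in flower buds, 81.4 in leaves after flowering, against 195 in leaves before flowering, and at 1.41 in milk grains and 0.792 in roots before flowering; colours separate the 5 libraries that chose the loci from the other 3.

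The choice rested on both low libraries. Of 6013 loci with at least 10 FPKM in each of leaves before flowering, flowers and mature seeds, 231 met the ratio over roots before flowering alone and 554 met it over milk grains alone. Milk grains held the higher of the low values at 100 of the 135 loci, roots before flowering at 32, and the 2 were equal at 3. Values below 1 FPKM were found at 80 loci in roots before flowering and at 46 in milk grains, and 3 loci were listed at 0 in milk grains and 4 in roots before flowering. Just inside the ratio lay XLOC_028867 (chromosome 3, 2199771 to 2201650) at 5.05 and XLOC_050030 (chromosome 6, 4888547 to 4890731) at 5.08. Just outside it lay XLOC_031637 at 4.996 and XLOC_039582 at 4.94.

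In flower buds, 122 of the 135 loci (90.4%) had at least 10 FPKM, in leaves after flowering 120 (88.9%), and in the late root-labelled library 124 (91.9%). Over the 5878 loci that met the floor of 10 FPKM and missed the ratio, these shares were 96.2%, 94.6% and 93.7%, so the members were not above what the floor alone brought, and over all loci they were 32.6%, 30.4% and 30.1%. With leaves after flowering put in place of leaves before flowering, 116 of the 135 loci (85.9%) still met the whole rule, and with flower buds in place of flowers 117 did so (86.7%). With both exchanged at once, 102 loci (75.6%) met it. Of all 31187 loci, 129, 120 and 111 met these exchanged rules. Much of this overlap was built in, since the other libraries of the rule were kept. The exchanged libraries also resemble those they replaced, with a Pearson r of 0.925 for leaves and 0.961 for flowers over all loci. Were the late root-labelled library counted among the low libraries, 5 of the 135 loci would remain.

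Leaves before flowering held the highest of the 3 chosen values at 88 loci (65.2%), flowers at 38 (28.1%) and mature seeds at 9 (6.67%). The order leaves, flowers, seeds from high to low was the commonest, at 83 loci (61.5%). Mature seeds were the lowest of the 3 at 107 loci (79.3%). The highest of the 3 values was over 10 times the lowest at 24 loci and at most 2 times the lowest at 12, with a median of 6.18 times. The plot of all loci by library shows these groups.

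**Figure D2:**
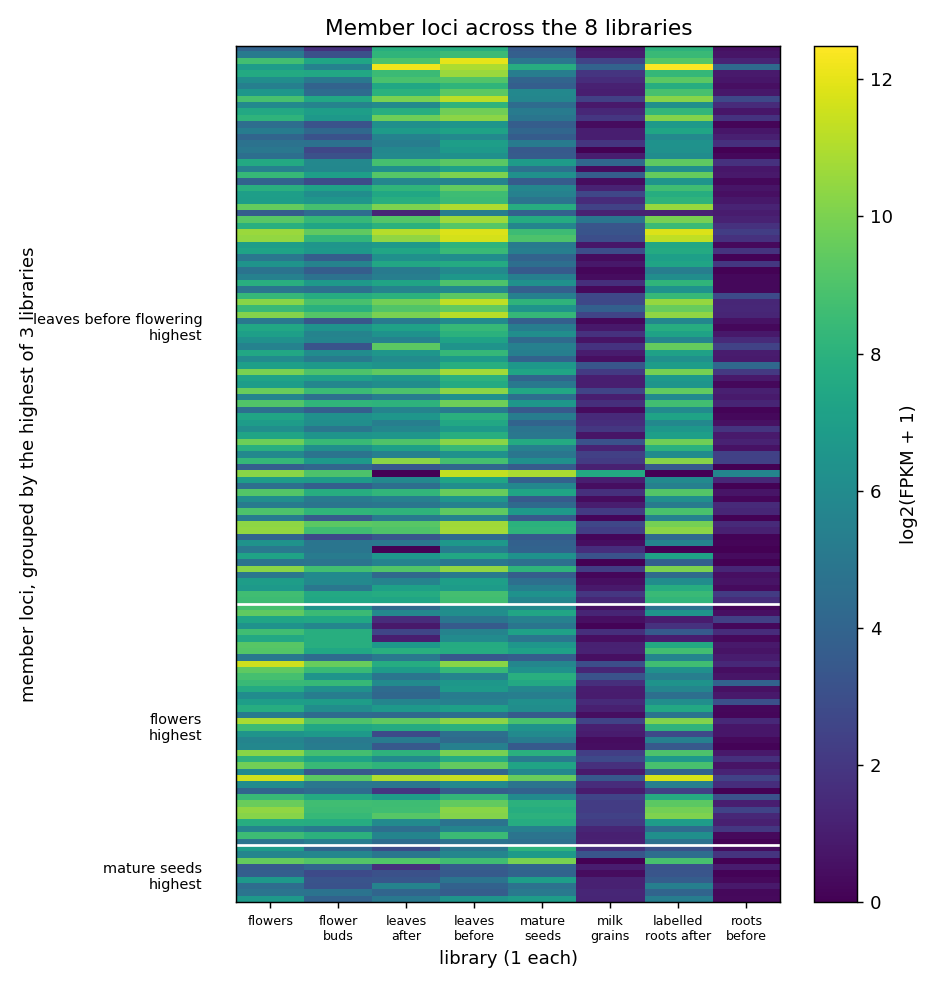
Level of each of the 135 loci as log2(FPKM + 1), shown by colour, with 1 row per locus and 1 column per library. Rows are grouped by the highest of leaves before flowering (88 loci), flowers (38) and mature seeds (9), and within a group by its lead over the next library; the columns of milk grains and roots before flowering are dark by choice of the loci.

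Among the 88 loci led by leaves before flowering, the median was 268 FPKM there, 121 FPKM in flowers and 35.3 FPKM in mature seeds. Their median in the unused libraries was 58.8 FPKM in flower buds, 126 in leaves after flowering and 166 in the late root-labelled library. The largest leads of leaves before flowering were found at a pair of neighbours on chromosome 7. XLOC_057227 (26059319 to 26063204) had 219.7 FPKM in leaves before flowering, 14.6 in flowers and 10.7 in mature seeds, against 0.750 in milk grains and 0.467 in roots before flowering. It had 2.30 FPKM in flower buds, 224 in leaves after flowering and 269 in the late root-labelled library. XLOC_057226 (26052221 to 26056127) had 364 FPKM in leaves before flowering, 34.9 in flowers and 12.7 in mature seeds, against 0.920 in milk grains and 0.624 in roots before flowering. It had 7.22 FPKM in flower buds, 289 in leaves after flowering and 347 in the late root-labelled library. Both loci were thus high in each leaf library and close to the floor of 10 FPKM in mature seeds.

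The 38 loci led by flowers had a median of 304.5 FPKM in flowers, 66.6 in leaves before flowering and 61.7 in mature seeds. In flower buds their median was 172 FPKM, and in leaves after flowering 49.8 FPKM. XLOC_037968 (chromosome 4, 34663054 to 34664723) had the largest lead, with 442 FPKM in flowers, 62.9 in leaves before flowering and 56.9 in mature seeds, against 0.469 in milk grains and 0.140 in roots before flowering. It had 84.2 FPKM in flower buds, 18.6 in leaves after flowering and 24.4 in the late root-labelled library. XLOC_060444 (chromosome 8, 241678 to 242634) followed, with 698 FPKM in flowers, 69.8 in leaves before flowering and 168 in mature seeds, against 1.41 in milk grains and 0.423 in roots before flowering. At this locus flower buds had 360 FPKM, leaves after flowering 57.6 and the late root-labelled library 91.3.

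The 9 loci led by mature seeds had a median of 111 FPKM in mature seeds, 50.1 in flowers and 26.6 in leaves before flowering. Their median was 16.0 FPKM in flower buds and 15.7 FPKM in leaves after flowering. XLOC_039937 (chromosome 4, 24687706 to 24689307) had 265 FPKM in mature seeds, 119 in flowers and 29.7 in leaves before flowering, against 2.31 in milk grains and 0.313 in roots before flowering. It had 16.0 FPKM in flower buds, 6.27 in leaves after flowering and 7.62 in the late root-labelled library. XLOC_014341 (chromosome 11, 28804247 to 28808550) had 1001 FPKM in mature seeds, 736 in flowers and 401 in leaves before flowering, and was listed at 0 in milk grains and roots before flowering. Flower buds had 572 FPKM, leaves after flowering 537 and the late root-labelled library 466, so that its 6 values above 0 lay between 401 and 1001 FPKM. No fold is given for it, since an exact 0 in such a table can be a failed estimate.

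Without loci at 0, the highest ratio of the rule was 84.1 at XLOC_030424 (chromosome 3, 21999941 to 22001714). It had 1918 FPKM in flowers, 1277 in leaves before flowering and 477 in mature seeds, against 4.69 in milk grains and 1.68 in roots before flowering. The next was XLOC_064127 (chromosome 9, 10845600 to 10847156) with a ratio of 71.3. Its levels were 3071 FPKM in flowers, 2642 in leaves before flowering and 765 in mature seeds, against 9.75 in milk grains and 4.48 in roots before flowering. In flower buds it had 642 FPKM, in leaves after flowering 2055 and in the late root-labelled library 3427. The most even loci were far lower: XLOC_044685 (chromosome 5, 7492684 to 7498383) had 26.6 FPKM in flowers, 26.3 in leaves before flowering and 22.2 in mature seeds. XLOC_015783 (chromosome 11, 18751124 to 18753286) had 50.7, 49.2 and 42.1 FPKM in the same 3 libraries.

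Open flowers were compared with flower buds, where flowers had entered the choice and buds had not. A locus was called different when its ratio, taken after adding 1 FPKM to each value, was 4-fold or more (2 on the log2 scale) and its larger value reached 5 FPKM. Log2 ratios throughout include the added 1 FPKM and therefore understate differences at low levels. By this rule 14 of the 135 loci (10.4%) were higher in flowers, where 0.73% of all 16038 loci tested were, and 0 were lower, where 0.436% of all were. The median log2 ratio of the 135 loci was 1.03, against 0.01 over all loci tested. Flowers were above buds at 123 loci (91.1%) and below them at 12, where 49.6% and 48.6% of all 31187 loci were. Flowers had entered the choice, which favours flowers over buds, so the ratio was also taken over loci chosen in other ways. Over 121 loci chosen on the geometric mean of both flower libraries and of both leaf libraries the median was 1.03, and over 111 loci chosen on flower buds and leaves after flowering it was 0.97. The latter choice favours buds over flowers. Of these loci, 118 of the 121 and 102 of the 111 were among the 135, so the sets are not independent.

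The largest ratios of flowers over buds with an own position belonged to XLOC_039939 and XLOC_039937, neighbours on chromosome 4. XLOC_039939 (24708715 to 24709910) had 106 FPKM in flowers and 8.47 in flower buds, a log2 ratio of 3.50, with 128 FPKM in mature seeds and 1.23 in milk grains. XLOC_039937 had a log2 ratio of 2.82. At the other end, XLOC_001609 (chromosome 1, 21038805 to 21041116) had 29.8 FPKM in flowers and 59.1 in flower buds, a log2 ratio of -0.97. XLOC_044685 had 26.6 FPKM in flowers and 40.2 in flower buds, a log2 ratio of -0.58. Neither of these reached 4-fold.

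For flag leaves, the library before flowering had entered the choice and the one after flowering had not. The choice therefore favours lower values after flowering. Of the 135 loci, 16 (11.9%) were at least 4-fold lower in leaves after than before flowering, where 2.5% of all 14789 loci tested were, and 1 was higher, where 3.88% of all were. The median log2 ratio was -1.14, against 0.06 over all loci tested. Leaves after flowering were below leaves before flowering at 118 loci (87.4%), where 48.4% of all 31187 loci were. The median was -1.10 over the 121 loci chosen on both leaf and both flower libraries, and -1.16 over the 111 loci chosen on flower buds and leaves after flowering. These sets share 118 and 102 loci with the 135 and are not independent of them. The count of 4-fold lower loci depended on the choice, at 8 of those 121 loci.

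XLOC_039555 (chromosome 4, 19835130 to 19836892) had 1.08 FPKM in leaves after flowering, against 63.4 in leaves before flowering, the lowest ratio of a locus with its own position and no 0, at -4.95 on the log2 scale. It had 184.6 FPKM in flowers, 229 in flower buds and 1.01 in the late root-labelled library. XLOC_055331 (chromosome 7, 471173 to 477680) had 1.95 FPKM in leaves after flowering, against 28.1 in leaves before flowering, a log2 ratio of -3.30. In the other direction, XLOC_026313 (chromosome 2, 19797527 to 19799038) had 46.4 FPKM in leaves after flowering, against 14.1 in leaves before flowering, a log2 ratio of 1.65. XLOC_025978 (chromosome 2, 15397393 to 15398605) had 30.8 FPKM in leaves after flowering, against 10.01 in leaves before flowering, a log2 ratio of 1.53, and lay just inside the floor of the rule. The 1 locus called higher, XLOC_003234, lies on a span shared by 27 loci on chromosome 1 and was named after its values were seen. It had 649 FPKM in leaves after flowering, against 83.1 in leaves before flowering.

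Both directions were found together at most loci, and each is the direction that the choice favours. At 107 of the 135 loci (79.3%) flowers were above buds and leaves after flowering were below leaves before flowering. This count follows from the separate shares of 91.1% and 87.4% and is no further result. The 5878 loci that reached 10 FPKM in leaves before flowering, flowers and mature seeds but missed the ratio did so at 1464 (24.9%). With a difference of at least 2-fold each way, the counts were 35 of 135 loci (25.9%) and 17 of 5878 (0.289%). Over all 31187 loci, 23.4% had both directions and 0.417% had them at 2-fold each way. The direction was shared with a leaf and flower set, 135 loci chosen with the same floor and ratio for leaves before flowering and flowers over roots before flowering, milk grains and mature seeds. There it was found at 113 of 135 loci (83.7%), and with at least 2-fold each way at 19 (14.1%). The direction was thus not particular to the members. Among loci chosen on both leaf and both flower libraries it was found at 100 of 121 (82.6%), and among those chosen on flower buds and leaves after flowering at 87 of 111 (78.4%). Of these sets, 118 and 102 loci were among the 135. These shares describe 4 libraries, and no test of a difference was possible. The median level over the 135 loci was 129 FPKM in flowers and 71.4 in flower buds, and 81.4 in leaves after flowering, against 194.5 in leaves before flowering.

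**Figure D3:**
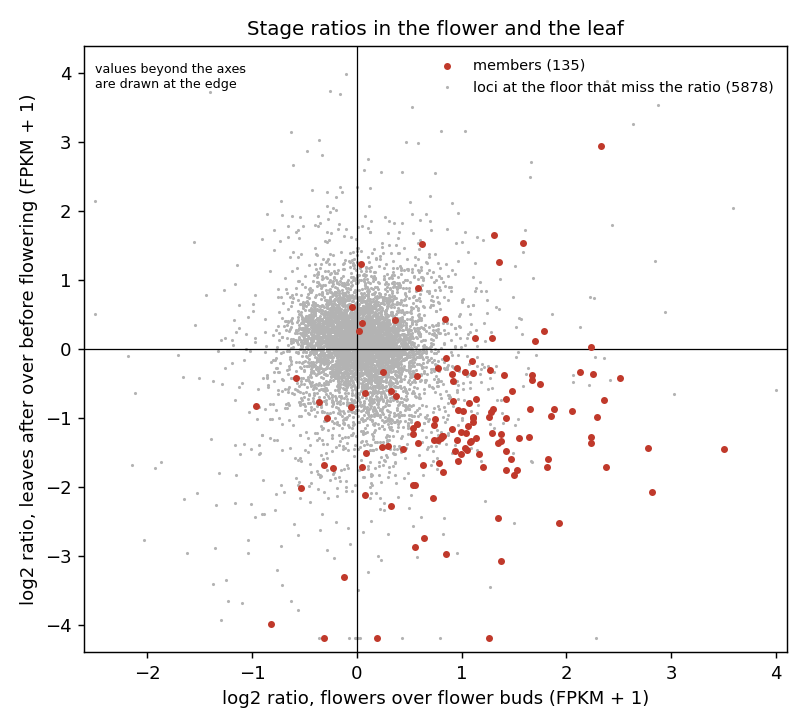
Log2 ratio of leaves after over leaves before flowering (vertical) against log2 ratio of flowers over flower buds (horizontal), both with 1 FPKM added, with 1 point per locus for the 135 loci (red) and for 5878 loci that reached the floor of 10 FPKM and missed the ratio (grey). Of the red points, 107 lie in the lower right part, where flowers are above buds and leaves after flowering are below leaves before flowering.

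Of the 16 loci that were 4-fold lower in leaves after flowering, 11 had a position of their own, 7 were led by leaves before flowering and 7 by flowers. Their median was 5.67 FPKM in leaves after flowering, against 87.3 in leaves before flowering, and 172.5 FPKM in flowers and 119 in flower buds. In 11 of the 135 loci both leaves after flowering and the late root-labelled library were below 10 FPKM. This included XLOC_000444 (chromosome 1, 5478286 to 5479884), which had 2577 FPKM in leaves before flowering, 1245 in flowers, 517 in flower buds and 1885 in mature seeds. It was listed at 0 in both leaves after flowering and the late root-labelled library. Its 191 FPKM in milk grains and 50.5 FPKM in roots before flowering were the highest of the 135 loci in those libraries. XLOC_021385, on a span of 40 loci on chromosome 12 and named for this after its values were seen, was likewise listed at 0 in both later libraries.

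Leaves after flowering were next compared with flower buds, since neither library had entered the choice. The 135 loci fell on both sides: 22 (16.3%) were at least 4-fold higher in leaves after flowering, where 9.6% of all 17446 loci tested were, and 14 (10.4%) were lower, where 17.3% of all were. The median log2 ratio was 0.41, against -0.05 over all loci tested. Of the 22 higher loci, 21 were led by leaves before flowering, and of the 14 lower loci 10 were led by flowers. Among all 135 loci, 88 and 38 were led by these libraries. The lead was taken from values of the choice. Over all loci, Pearson r was 0.925 between the leaf libraries and 0.961 between the flower libraries. Nothing is therefore read from this split. XLOC_006420 (chromosome 1, 39682833 to 39683442), a locus of 610 bases, had 4728 FPKM in leaves after flowering and 46.1 in flower buds, a log2 ratio of 6.65. It also had 5728 FPKM in the late root-labelled library, 1961 in leaves before flowering, 119 in flowers and 216.6 in mature seeds, against 14.7 in milk grains and 18.8 in roots before flowering. XLOC_006420 alone gave 13.3% of the summed FPKM of the 135 loci in leaves after flowering. Among loci with an own position and no 0, XLOC_057227 came next, with a log2 ratio of 6.09. Of the same loci, XLOC_039555 (-6.79) and XLOC_055331 (-5.90) lay at the other end.

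The late root-labelled library followed leaves after flowering at these loci, with a small shift upwards. None of the 128 loci tested was 4-fold higher or lower there than in leaves after flowering. Of all 13837 loci tested only 0.13% and 0.188% were, so nothing is read from that count. Within 2-fold lay 129 of the 135 loci (95.6%), against 98.4% of all loci and 99.2% of those that reached the floor and missed the ratio. The late root-labelled library was above leaves after flowering at 118 loci (87.4%), where 47.5% of all 31187 loci were. Of the 5878 loci that reached the floor and missed the ratio, 2379 were (40.5%). The median log2 ratio was 0.51, against -0.03 over all loci tested. At 99 of the 135 loci (73.3%) its level lay between those of leaves after and leaves before flowering, against 2790 of the 5878 loci (47.5%). These shares are not on equal terms, since a level between is likelier where the leaf libraries lie further apart. The median log2 ratio of leaves after over before flowering was -1.14 for the 135 loci, against 0.09 for the 5878. The leaf and flower set showed the same shift, with 115 of its 135 loci (85.2%) above leaves after flowering and 105 (77.8%) between the leaf libraries. Over the 135 members, the median of the late root-labelled library was 118 FPKM. It was 81.4 FPKM in leaves after flowering and 194.5 FPKM in leaves before flowering.

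**Figure D4:**
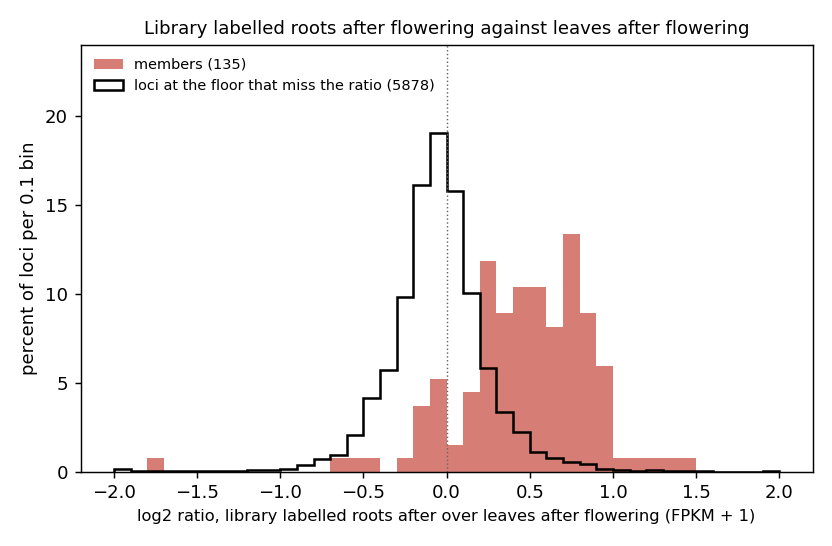
Distribution of the log2 ratio of the late root-labelled library over leaves after flowering, with 1 FPKM added, as the percent of loci in each bin for the 135 loci (red) and for 5878 loci that reached the floor of 10 FPKM and missed the ratio (black outline). The red bars are centred right of 0, with a median of 0.51, and the outline is centred at -0.05.

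The largest ratios of this library over leaves after flowering were seen at XLOC_047201 (chromosome 6, 163191 to 165539), with 7.83 FPKM there and 2.16 in leaves after flowering, and at XLOC_037689 (chromosome 4, 31050948 to 31062703), with 50.8 FPKM there and 19.4 in leaves after flowering. Their log2 ratios were 1.48 and 1.34. Among loci with an own position, the lowest ratios were at XLOC_018168 (chromosome 12, 11320266 to 11322547) and XLOC_055331. XLOC_018168 had 75.2 FPKM in the late root-labelled library and 114 in leaves after flowering. XLOC_055331 had 0.930 FPKM in the late root-labelled library and 1.95 in leaves after flowering. Against roots before flowering, which the rule holds low, 127 of 129 loci tested were at least 4-fold higher in the late root-labelled library, where 14.1% of all loci tested were, and 1 was lower, where 16% of all were. Nothing is read from that count, nor from the 135 of 135 loci that were 4-fold higher in mature seeds than in milk grains, where 18.6% of all were and 7.38% were lower.

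The 135 loci were spread over the 12 chromosomes. Chromosome 1 held 20 of them and chromosome 7 held 18, while chromosomes 5 and 10 held 5 each. As a share of the loci on the chromosome that reached the floor of 10 FPKM, they ranged between 0.986% on chromosome 5 and 3.69% on chromosome 7. The spans of the 100 loci with a position of their own had a median of 2222 bases, against 4104 bases for the 4338 loci with an own position that reached the floor and missed the ratio. Below 2000 bases were 39 of the 100 and 483 of the 4338 (11.1%). All 20892 loci with an own position had a median of 3321 bases, with 28.0% below 2000, and the leaf and flower set had a median of 2231 bases, with 42.5% below 2000. Within the 100, the 34 loci that reached 500 FPKM in leaves before flowering had a median span of 1634.5 bases, and the other 66 had 2697 bases.

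A few members were neighbours. Among loci with own positions, 5 pairs of consecutive members lay within 20 kb of each other. The closest, XLOC_057226 and XLOC_057227 on chromosome 7, were 3191 bases apart with no other locus of the table between them. The next, XLOC_018307 (13103625 to 13106311) and XLOC_018309 (13115138 to 13117356) on chromosome 12, were 8826 bases apart with 1 locus between. XLOC_018307 had 228 FPKM in leaves before flowering, 154 in flowers and 29.7 in mature seeds, and XLOC_018309 had 2066, 743 and 221 FPKM in the same 3 libraries. The longest run of members with gaps of up to 40 kb, singled out after its values were seen, held 4 members among 9 loci on 62.0 kb of chromosome 4. Of these, XLOC_039932 (24647900 to 24649396) had 635 FPKM in leaves before flowering and 192 in flowers, while XLOC_039937 and XLOC_039939 were highest in mature seeds. The fourth, XLOC_039935, shares its span with 1 other locus and had 19.1 FPKM in leaves before flowering, 15.8 in flowers and 10.6 in mature seeds. In 2 further cases, also picked after the values were seen, both loci of a span of 2 were members: XLOC_005668 and XLOC_002321, and XLOC_005877 and XLOC_002530, each pair on chromosome 1. Strand was not kept in these libraries, so for overlapping loci on opposite strands the 2 signals cannot be separated.

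The members were set beside loci of the most similar patterns, chosen with the same floor and ratio. Of the 135 loci of the leaf and flower set, 22 were also members. In mature seeds the members had a median of 41.3 FPKM, against 5.09 FPKM for the leaf and flower set, which follows from the choice. The median log2 ratio of flowers over buds was 1.03 for the members, against 0.59 for the leaf and flower set. For leaves after over before flowering it was -1.14 for the members, against -1.50 for the leaf and flower set. A flower and seed set of 80 loci was high in flowers and mature seeds over the other 3 libraries of the rule, and shared 1 locus with the members. Flowers were above buds at 123 of the 135 members, against 31 of the 80 loci of the flower and seed set, whose median log2 ratio was -0.38. These differences between sets could not be tested.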

How the data were processed

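Poly(A) RNA of 8 rice libraries was sequenced as non-directional paired-end reads, per the labels. The authors deposited 1 FPKM value per locus and library; the submitters' processing notes name TopHat, Cufflinks and Cuffdiff, without versions or settings. Every locus had at least 1.00001 FPKM in 1 library, and loci below that are not analysed here. Columns were assigned to libraries by the sample titles. From these values, the rule, counts, medians and log2 ratios with 1 FPKM added were computed in Python 3.11.15 with pandas 2.3.3 and numpy 2.4.6, and the code was tested on simulated data. No test was run, since each group held 1 library. Loci named in the text are the 2 most extreme on each measure, with an own position and without a 0 in the ratio; exceptions are marked. The loci, sets and lists were chosen with earlier results of these data known. Alternatives changed the pseudocount, filter, fold, scaling and the floor and ratio of the rule. Because FPKM is relative to all mapped fragments, a few abundant transcripts in a library lower the values of the rest. No sequence is printed, since no genome of the files' build was used here.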

Additional observations from a re-analysis of the deposited data

Results flagged for a closer look

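At 9 of the 135 loci, leaves were at least 4-fold lower after than before flowering while the late root-labelled library was at least 4-fold higher than roots before flowering. These were 6.98% of the 129 members tested in both, where 0.535% of all 13653 loci tested in both met both conditions, 0.205% of those that met the floor of 10 FPKM and missed the ratio, and 19.1% of the leaf and flower set (25 of 131). The 2 effects point in opposite directions and their difference was not tested, for lack of replicates. Roots before flowering were held low and leaves before flowering high by the choice of loci. Both conditions were thus favoured by the choice, and nothing is read from this count. The late root-labelled library was close to leaves after flowering.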

How the results depend on the processing

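Of 158 values recomputed under the alternatives, 20 moved and 0 reversed. Many of these values are counts of loci, which cannot reverse. Of the 158 values, 48 were log2 ratios of single loci, all counted as not moved. The number of loci was 229 with a ratio of 3 and 88 with a ratio of 8. Counts taken as not moved also differed from 135: 171 with a floor of 5 FPKM, 94 with a floor of 20 FPKM and 162 with a pseudocount of 0.1 FPKM. With median of ratios scaling the number was 112, and with upper quartile scaling 138. With 2-fold in place of 4-fold, 70 loci were higher in flowers than buds, 6 higher and 76 lower in leaves after than before flowering, 5 higher and 1 lower in the late root-labelled library than in leaves after flowering, and 37 higher and 27 lower in leaves after flowering than flower buds. With 8-fold the counts were 1 higher in flowers, and 0 higher and 6 lower in leaves after than before flowering. Leaves after flowering were then higher than flower buds at 11 and lower at 8. The matching shares over all loci are not given, so nothing is read from these counts. Without a filter on level, 48.1% of members lay within 2-fold between flowers and buds, against 93.7% of all loci. Between the leaf libraries 39.3% did, against 85.6%, and between leaves after flowering and flower buds 52.6%, against 60.3%. With own positions only, 9 loci were higher in flowers, 0 higher in leaves after flowering, and 9 lower in leaves after flowering than flower buds; fewer loci are counted there. Over loci chosen on both leaf and both flower libraries, an alternative added after the data were seen, 3 were 4-fold higher and 8 lower in leaves after than before flowering. Upper quartile scaling moved the median of leaves after flowering over flower buds to 0.172, and that of all loci tested to -0.27. No paired analysis was possible because each group held 1 library and the numbers in the titles name stages. Depth is unknown, so the smallest detectable level cannot be given.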

Other observations

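The remaining level of the 135 loci in the low libraries is given as a description, since these values chose the loci. The ratio of the rule had a median of 10.02, where 5 was required. The level in milk grains was 2.90% of that in mature seeds at the median locus, with quartiles of 1.65% and 7.06%, and 17.7% at the highest. The level in roots before flowering was 0.263% of that in leaves before flowering at the median locus, with quartiles of 0.118% and 1.04%, and 17.6% at the highest. At 6 loci milk grains had 10 FPKM or more, and at 4 loci roots before flowering did.

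The 24 loci that reached 1000 FPKM in leaves before flowering had a median of 1177 FPKM in flowers and 389 in flower buds, 595 in later leaves and 1685 in earlier leaves, and 221 in mature seeds and 4.84 in milk grains. In the late root-labelled library their median was 1060 FPKM, against 1.67 in roots before flowering. Of the 24, 19 were led by leaves before flowering and 5 by flowers.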
